A study of Mus musculus with 10 samples.

Results

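The immediate early genes described here are 10 genes chosen by symbol: Fos, Fosb, Fosl1, Jun, Junb, Jund, Egr1, Atf3, Ier2 and Dusp1. All 10 had a row in the table of 18407 genes, and all 10 were among the 10789 genes with enough counts to test. The cells were NMC, an established line of normal mouse cholangiocytes, the epithelium of bile ducts. They were kept for 6 days inside 3D double-spheroid gels made either of laminin mixed with collagen I (3 volumes to 1, 5 libraries) or of collagen I alone at 1 mg/mL (5 libraries). The labels name no further treatment, and both gels contain collagen I. Every library comes from the same line, and the labels do not say how the cultures were divided. The p-values therefore measure only the spread between these samples.

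Immediate early genes are switched on by growth factors, stress or adhesion signals without new protein synthesis, mainly through MAP kinases acting on the serum response factor and on CREB-type factors. Fos and Jun proteins pair through leucine zippers to form the transcription factor AP-1. Fos, Fosb and Fosl1 (also called Fra-1) are Fos-type subunits, which need a Jun partner to bind DNA. Jun, Junb and Jund can pair with each other or with a Fos-type subunit. Egr1 is a zinc-finger transcription factor, Atf3 a stress-induced factor of the ATF/CREB family, Ier2 a small nuclear protein, and Dusp1 a phosphatase that switches MAP kinases off.

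Library totals ran from 4424725 to 7468219 counts in the laminin-rich gel and from 4913441 to 8129979 counts in collagen I. Markers of bile duct epithelium were abundant in both groups, with Krt8 at a mean of 1110 CPM in laminin-rich gel and 1237 CPM in collagen I. CPM is a gene's count after every library is scaled to the same standard total. The 19 cholangiocyte markers summed to 4390 to 5617 CPM in laminin-rich gel and 4094 to 6147 CPM in collagen I, with 14 of the 19 at a mean of 1 CPM or more. Of 13 tested, 8 were higher and 5, Krt7 among them, lower in laminin-rich gel. An unadjusted p under 0.05 in edgeR was found for 4, Muc1, Slc10a2, Aqp1 and Cdh1, all higher, against 6.68% of all genes higher at that p. The 3 hepatocyte markers tested, Alb, Ttr and Hnf4a, were also all higher at that p. After adjustment 0 of these markers passed. Hepatocyte markers reached a mean of 1 CPM in 5 of 12, led by Hnf4a, with Cyp2e1, Cyp3a11 and Pck1 at 0. They summed to 130 to 196 CPM in laminin-rich gel and 89.3 to 138 CPM in collagen I (two-sided exact permutation test over all assignments of the libraries, p = 0.0159, adjusted 0.0794 over 5 marker lists). Of 15 fibroblast and stellate markers 8 reached 1 CPM, led by Fbln2, with Lrat and Thy1 at 0. They summed to 670 to 818 CPM in laminin-rich gel and 648 to 818 CPM in collagen I. That sum was mostly Fbln2, at 651 CPM in laminin-rich gel and 636 CPM in collagen I. Its members differed in direction, with Dcn at 3.47 CPM in laminin-rich gel and 8.13 CPM in collagen I (adjusted p = 0.0697 in edgeR) and Pdgfra at 9.32 CPM in laminin-rich gel and 4.02 CPM in collagen I (adjusted p = 0.203 in edgeR). Endothelial markers stayed at or below 5.29 CPM with Cdh5, Kdr and Clec4g at 0, and leukocyte markers at or below 8.82 CPM with Adgre1, Clec4f and Tyrobp among those at 0. What part these other markers have in the values below was not tested.

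Promoter sequence was on hand for 7 of the 10 genes (RefSeq, GRCm38.p6). The 250 bases before the annotated start were searched for the core of the cyclic AMP response element, TGACGT on either strand, through which CREB and ATF proteins act. It was present in 3 of the 7 windows, those of Fos, Atf3 and Dusp1, and in 6.47% of 32851 promoter windows of the same length. These 3 are shown because they hold the motif and because 2 of them, Fos and Atf3, had the highest Pearson correlation of any pair between libraries, a value that rests on 2 libraries. Whether the motif has a part in any correlation was not tested. The motif, or its reverse complement ACGTCA, is in capitals. In the Fos window, chr12:85473640-85473889 (plus strand), it begins 66 bases before the start. In the Atf3 window, chr1:191183334-191183583 (minus strand), it begins 8 bases before the start. In the Dusp1 window, chr17:26508473-26508722 (minus strand), the matches begin 191, 143 and 141 bases before the start, the last pair overlapping as the full palindrome TGACGTCA, which 1.55% of windows hold.
Fos: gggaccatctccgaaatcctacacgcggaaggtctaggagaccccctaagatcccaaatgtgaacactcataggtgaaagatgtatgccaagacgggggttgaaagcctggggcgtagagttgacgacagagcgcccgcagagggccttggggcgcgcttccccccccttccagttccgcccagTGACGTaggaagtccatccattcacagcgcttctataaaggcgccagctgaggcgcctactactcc
Atf3: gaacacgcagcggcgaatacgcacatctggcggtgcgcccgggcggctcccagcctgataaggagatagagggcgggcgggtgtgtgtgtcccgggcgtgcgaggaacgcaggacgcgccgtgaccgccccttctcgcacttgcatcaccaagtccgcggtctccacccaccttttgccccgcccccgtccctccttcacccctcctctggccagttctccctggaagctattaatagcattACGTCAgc
Dusp1: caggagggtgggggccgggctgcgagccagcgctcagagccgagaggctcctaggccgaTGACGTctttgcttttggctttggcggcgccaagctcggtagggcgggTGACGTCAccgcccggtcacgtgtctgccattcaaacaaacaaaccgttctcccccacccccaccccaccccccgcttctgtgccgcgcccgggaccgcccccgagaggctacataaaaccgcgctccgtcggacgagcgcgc

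A match of these letters is a description and not a shown binding site. The AP-1 element TGANTCA and the CArG box bound by the serum response factor were in none of the 7 windows, against 6.75% and 1.47% of all windows. Sequence farther upstream than 250 bases was not searched, and Fosl1, Egr1 and Ier2 had no window. The search therefore does not show that these genes lack such elements.

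None of the 10 genes passed edgeR's quasi-likelihood test between the matrices after Benjamini-Hochberg adjustment over all 10789 genes, where 16 genes, or 0.148%, passed at 0.05 (0.139% higher and 0.00927% lower in laminin-rich gel). At an unadjusted p under 0.05 there were 2 of the 10, Fosl1 and Egr1, against 11.6% of all genes tested (6.68% higher and 4.95% lower in laminin-rich gel). DESeq2, run as an alternative, called 1 of the 10, Fosl1, and 219 of the 11942 genes it tested. By fitted value, 6 of the 10 were above collagen I and 4 below, with a median log2 difference of 0.11, against 0.01 over all genes. Fosl1 and Egr1 stood at opposite ends, with Fosl1 lower and Egr1 higher in laminin-rich gel. In bulk RNA, fewer cells of a type and less RNA per cell cannot be told apart.

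**Figure D1:**
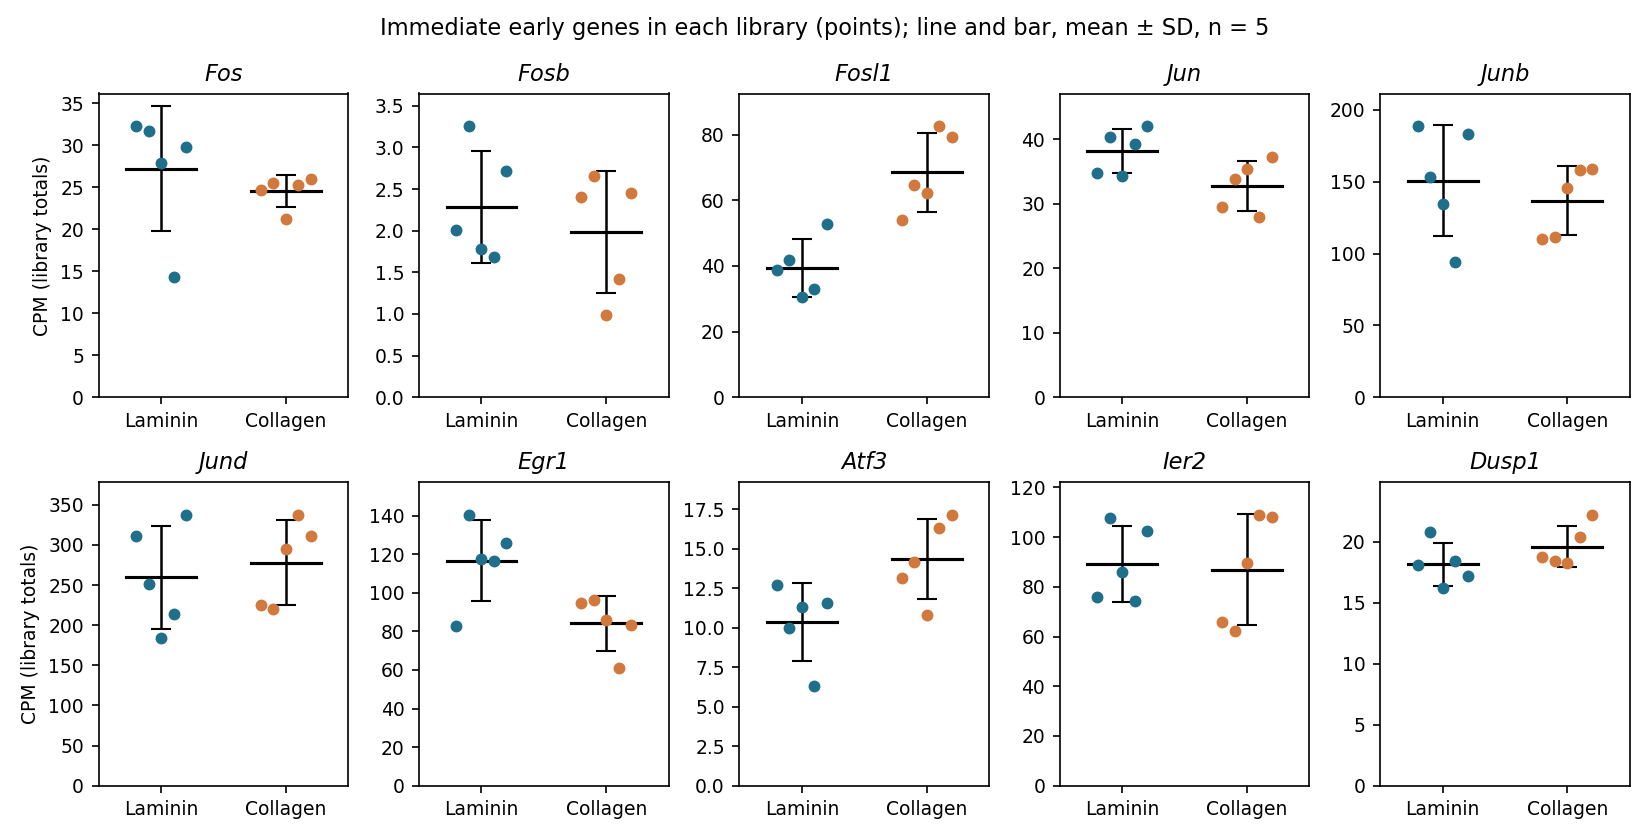
Each panel plots 1 gene, with CPM scaled to library totals on the vertical axis from 0 and a point for each of the 5 libraries per matrix, and the line and bar give the mean ± SD. For Fosl1 all 5 laminin-rich libraries, at up to 52.9 CPM, lie under all 5 collagen I libraries, at 53.9 CPM or more, while the other 9 genes have points that overlap.

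**Figure D2:**
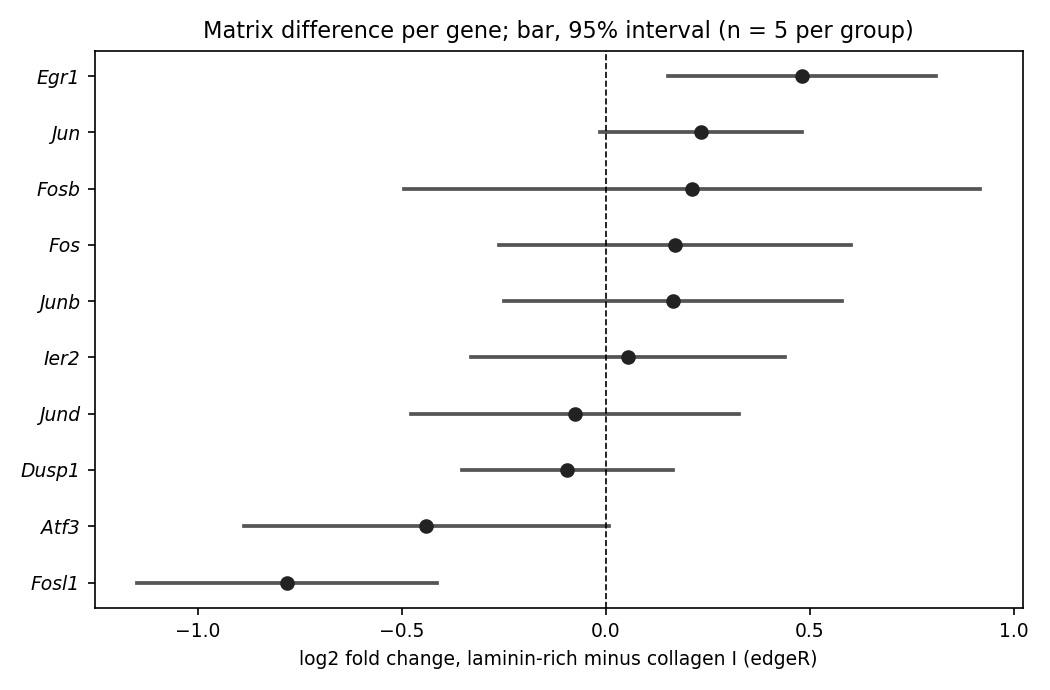
Points give the fitted log2 fold change of each gene, laminin-rich minus collagen I, on the horizontal axis, and bars the 95% interval from the edgeR fit. Fosl1 at -0.78 and Egr1 at 0.48 are the only members whose interval, without adjustment for the number of genes, leaves out 0.

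Among the Fos-type subunits, Fosl1 had 38.7, 41.8, 30.6, 32.9 and 52.9 CPM in the 5 laminin-rich libraries, against 53.9, 64.7, 62.1, 82.6 and 79.2 CPM in the 5 collagen I libraries. The groups did not overlap, although the highest laminin-rich library and the lowest collagen I library were only about 1 CPM apart. This was 1 of the 10 genes, against 3.35% of all genes tested, or 1.8% for lower values in laminin-rich gel. Means were 39.4 ± 8.77 CPM in laminin-rich gel and 68.5 ± 12.1 CPM in collagen I (SD, n = 5 each). The fitted level in laminin-rich gel was 0.582 of that in collagen I, a log2 difference of -0.78 (SE 0.17, 95% interval -1.15 to -0.41). It was the 57th lowest p of all genes, and its adjusted p in edgeR was 0.0994, on the far side of the threshold.

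Fosl1 stayed lower in laminin-rich gel in each of the 23 alternative fits, a direction that groups without overlap nearly fix beforehand. It passed in 4 of them: DESeq2 (adjusted p = 0.00304), the fit without the collagen I libraries of code letter B (0.0204), and the edgeR fit after removal of each library's trend on transcript length and GC content, alone (0.0139) and together with the replicate number as a block (0.0392). Over all genes, 219 of 11942 passed in DESeq2, 2083 of 11018 without letter B, 104 of 10789 with the trend removed and 12 of 10789 with the block added to that. The adjusted p of Fosl1 over all 23 ran from 0.00304 to 0.857, and from 0.0756 to 0.281 in edgeR when single libraries were left out. Fosl1 lies on chromosome 19 from 5447547 to 5455946 (GRCm38, plus strand, 4 exon blocks). Its exons share 57.2% of their bases with Ccdc85b on the opposite strand, and no source used here says whether reads were counted by strand. Ccdc85b was at 41.5 ± 9.12 CPM in laminin-rich gel and 44.4 ± 8.96 CPM in collagen I (SD, n = 5 each), a log2 difference of -0.08 (SE 0.18).

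The labels give each library a code whose letter, of unstated meaning, occurs in only 1 matrix, so letter and matrix cannot be told apart. Within collagen I, Fosl1 was at 53.9 to 64.7 CPM in the 3 libraries of letter B and at 79.2 to 82.6 CPM in the 2 of letter D. Within laminin-rich gel it was at 30.6 to 41.8 CPM in the 3 libraries of letter E and at 32.9 and 52.9 CPM in the 2 of letter F. Leaving out letter D gave a log2 difference of -0.60, and leaving out letter B gave -1.05.

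Fos, the founding member of the family, had 32.3, 31.7, 27.8, 14.2 and 29.8 CPM in laminin-rich libraries 1 to 5, against 24.7, 25.5, 21.2, 25.2 and 26.0 CPM in collagen I libraries 1 to 5. Of the laminin-rich libraries, 4 lay above every collagen I library, while replicate 4 lay below all of them. The log2 difference was 0.17 (SE 0.20, 95% interval -0.26 to 0.60), with an adjusted p of 0.793 in edgeR. Without laminin-rich replicate 4 it was 0.32 (unadjusted p = 0.0191, adjusted p = 0.328 in edgeR), and it did not pass in any of the 23 alternatives. Without the 3 laminin-rich libraries of letter E, so with replicates 4 and 5 only, the difference had the other sign, at -0.18 (adjusted p = 1.00 in edgeR).

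Fosb, the closest relative of Fos, was the scarcest member, with 11 to 18 counts per library in laminin-rich gel and 7 to 17 counts in collagen I. That came to 2.29 ± 0.674 CPM in laminin-rich gel and 1.98 ± 0.734 CPM in collagen I (SD, n = 5 each), with overlapping groups. Counting error alone gives a coefficient of variation of 27.8% in laminin-rich gel and 28.7% in collagen I, where the measured values were 29.5% and 37.0%. Its log2 difference was 0.21 (SE 0.33, adjusted p = 0.851 in edgeR). The 95% interval ran from -0.49 to 0.92, which includes a moderate difference in either direction that was not detectable at this depth.

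No Jun-type subunit passed the test. Jun, the strongest activator of the family, had 34.8, 40.4, 34.3, 39.2 and 42.0 CPM in laminin-rich libraries, against 29.5, 33.8, 35.3, 27.9 and 37.2 CPM in collagen I libraries. The laminin-rich values lie in the upper part of a shared range. The log2 difference was 0.23 (SE 0.11, 95% interval -0.02 to 0.48), with an adjusted p of 0.457 in edgeR. Junb, often a weaker activator than Jun, had 188.8, 153.7, 134.4, 94.4 and 183.1 CPM in laminin-rich libraries, against 110.2, 111.6, 145.8, 158.1 and 158.6 CPM in collagen I libraries. The laminin-rich libraries held both the highest and the lowest value. It averaged 151 ± 38.6 CPM in laminin-rich gel and 137 ± 24.2 CPM in collagen I (SD, n = 5 each). Its log2 difference was 0.16 (SE 0.19, 95% interval -0.25 to 0.58), with an adjusted p of 0.790 in edgeR. Jund, the Jun-type subunit least dependent on stimulation, had 311.1, 251.4, 184.1, 214.3 and 337.0 CPM in laminin-rich libraries, against 225.2, 220.4, 295.1, 337.8 and 311.0 CPM in collagen I libraries. The groups covered nearly the same range, with both collagen I libraries of letter D above all 3 of letter B. It averaged 260 ± 64.1 CPM in laminin-rich gel and 278 ± 52.6 CPM in collagen I (SD, n = 5 each). Its log2 difference was -0.08 (SE 0.19, 95% interval -0.48 to 0.33), with an adjusted p of 0.908 in edgeR. Jun, Junb and Jund have exons that overlap Junos (7.28% of bases), Prdx2 (7.52%) and Gm11175 (52.6%) on the opposite strand.

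Egr1, which binds GC-rich promoter sites and is a classic readout of ERK signalling, had 83.0, 140.6, 117.5, 116.6 and 126.1 CPM in laminin-rich libraries, against 94.8, 96.4, 85.9, 61.1 and 83.1 CPM in collagen I libraries. Of the laminin-rich libraries, 4 lay above every collagen I library, and replicate 1, the lowest, lay among them. Means were 117 ± 21.2 CPM in laminin-rich gel and 84.3 ± 14.1 CPM in collagen I (SD, n = 5 each). The fitted level in laminin-rich gel was 1.40-fold that in collagen I, a log2 difference of 0.48 (SE 0.15, 95% interval 0.15 to 0.81), with an adjusted p of 0.254 in edgeR. The log2 difference stayed positive in all 23 alternatives, from 0.34 to 0.69. It passed in 1 of them, without the letter B libraries, where the collagen I group is the 2 letter D libraries at 61.1 and 83.1 CPM (adjusted p = 0.0347 in edgeR, range over the alternatives 0.0347 to 0.857). That fit called 2083 of the 11018 genes it tested, so the call does not set Egr1 apart.

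**Figure D3:**
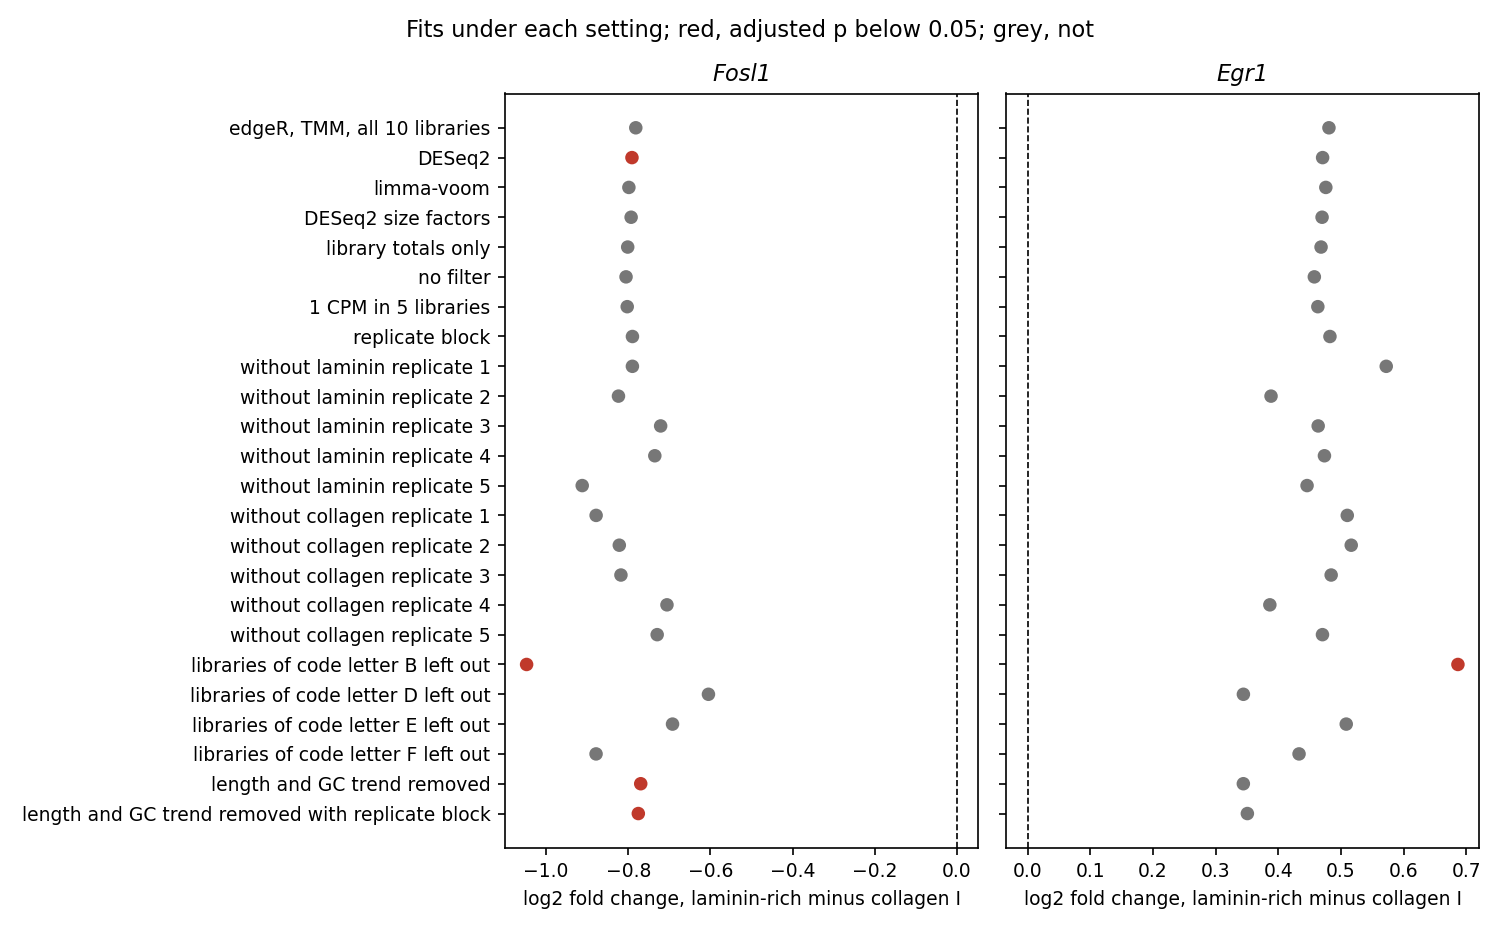
Each row is a fit of the matrix comparison and the horizontal axis is the log2 fold change, laminin-rich minus collagen I, for Fosl1 and Egr1, with red points where the adjusted p is below 0.05. Fosl1 lies between -1.05 and -0.60 and is red in 4 of 23 alternatives, and Egr1 lies between 0.34 and 0.69 and is red in 1. The fit in which Egr1 is red, without letter B, called 2083 of 11018 genes.

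Atf3, the stress-induced member, had 12.7, 9.95, 11.3, 6.28 and 11.5 CPM in laminin-rich libraries, against 13.1, 14.2, 10.8, 16.3 and 17.2 CPM in collagen I libraries. The groups overlapped through collagen I replicate 3, and laminin-rich replicate 4 was again the lowest. The log2 difference was -0.44 (SE 0.21, 95% interval -0.89 to 0.01), with an adjusted p of 0.436 in edgeR and no call in any of the 23 alternatives. Without laminin-rich replicate 4 it was -0.31.

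Ier2, the small nuclear protein, had 75.8, 107.5, 86.0, 74.5 and 102.4 CPM in laminin-rich libraries, against 65.8, 62.2, 89.4, 109.1 and 108.3 CPM in collagen I libraries. The groups overlapped over most of their range. It averaged 89.2 ± 15.1 CPM in laminin-rich gel and 87.0 ± 22.4 CPM in collagen I (SD, n = 5 each), a log2 difference of 0.05 (SE 0.18, 95% interval -0.33 to 0.44). Its adjusted p was 0.932 in edgeR. Within collagen I, the 2 libraries of letter D were above the 3 of letter B. The sign of its matrix difference turned in 5 alternatives, among them the fit without letter B at -0.29 (unadjusted p = 0.0984 in edgeR), while without letter D it was 0.31 (unadjusted p = 0.0825 in edgeR). Dusp1, the feedback phosphatase, had 18.1, 20.8, 16.2, 18.4 and 17.2 CPM in laminin-rich libraries, against 18.8, 18.4, 18.2, 20.4 and 22.2 CPM in collagen I libraries. The groups overlapped and no library stood apart. Its means were 18.1 ± 1.73 CPM in laminin-rich gel and 19.6 ± 1.69 CPM in collagen I (SD, n = 5 each). Its coefficient of variation was 9.53% in laminin-rich gel and 8.62% in collagen I, where counting error alone gives 9.71% in laminin-rich gel and 9.11% in collagen I. The log2 difference of -0.09 (SE 0.12) had a 95% interval of -0.35 to 0.16 and an adjusted p of 0.811 in edgeR.

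Levels of different genes were compared per kilobase of the longest annotated transcript. Jund was the highest member in both matrices, at 156 ± 38.5 CPM per kb in laminin-rich gel and 167 ± 31.5 CPM per kb in collagen I (SD, n = 5 each). Junb followed at 83.4 CPM per kb in laminin-rich gel and 75.7 in collagen I, and Ier2 at 58.6 in laminin-rich gel and 57.1 in collagen I. The ranges of Junb and Ier2 overlapped across libraries in both matrices, although within each library Junb was the higher, in 5 of 5 laminin-rich and 5 of 5 collagen I libraries. The range of Ier2 also met that of Fosl1 in collagen I, with Ier2 the higher in 5 of 5 libraries. Fosb was last in both, at 0.605 CPM per kb in laminin-rich gel and 0.524 in collagen I. For Jund the annotations differ. Its RefSeq promoter window ends at chr8:70697738 (plus strand), upstream of the GENCODE start at 70698949 used for its length. A longer Jund transcript would lower its level per kb and its share given below.

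The order differed between the matrices at a single place. After Ier2, laminin-rich gel had Egr1 next, at 26.0 ± 4.73 CPM per kb, and then Fosl1, at 21.1 ± 4.70, with overlapping ranges and Egr1 the higher in 3 of 5 libraries. After Ier2, collagen I had Fosl1 next, at 36.8 ± 6.48 CPM per kb, and then Egr1, at 18.8 ± 3.16, with ranges that did not overlap (SD, n = 5 each). The ratio of Egr1 to Fosl1 per kb was 0.892 to 1.60 in the laminin-rich libraries and 0.307 to 0.731 in the collagen I libraries. This ratio was chosen after the values were seen and is given without a test. Fos and Jun followed, with overlapping ranges in both matrices and Fos the higher in 4 of 5 libraries of each, then Dusp1 and Atf3, whose ranges overlapped in collagen I and not in laminin-rich gel.

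**Figure D4:**
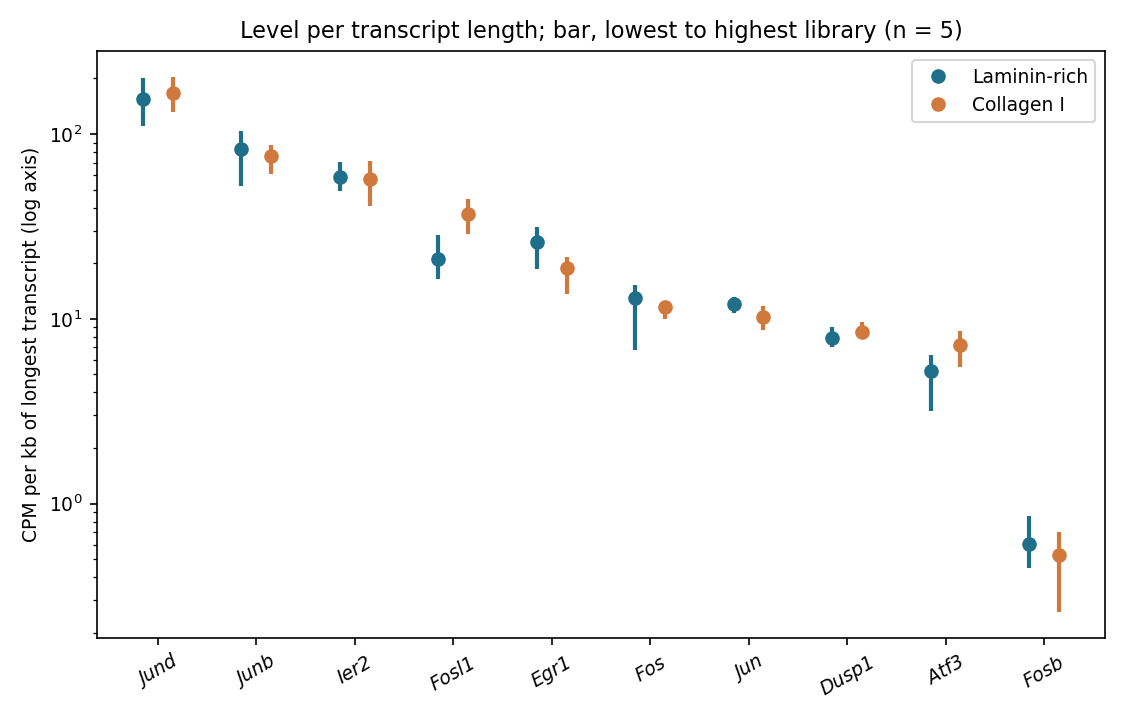
The vertical axis, a log axis, gives CPM per kb of the longest transcript for each gene, with points for the mean and bars from the lowest to the highest of 5 libraries in each matrix. Jund is highest at 156 CPM per kb in laminin-rich gel and 167 in collagen I, and only Fosl1 and Egr1 change places.

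Within the Fos-type subunits, Fosl1 made up 61.3 ± 6.85% of the summed level per kb of Fos, Fosb and Fosl1 in laminin-rich gel and 74.9 ± 3.27% in collagen I (SD, n = 5 each). The lowest share was 54.5% in laminin-rich gel and 70.1% in collagen I, and laminin-rich replicate 4, where Fos was low, reached 71.0%. Within the Jun-type subunits, Jund made up 61.9 ± 3.76% in laminin-rich gel and 65.9 ± 1.19% in collagen I. Junb made up 33.2 ± 4.05% in laminin-rich gel and 30.0 ± 0.529% in collagen I, and Jun 4.95 ± 1.09% in laminin-rich gel and 4.17 ± 0.823% in collagen I. The summed Jun-type level per kb was 6.48 to 8.25 times the summed Fos-type level in laminin-rich libraries and 4.30 to 6.16 times in collagen I libraries. These shares and ratios describe messenger RNA of the named genes only. Fosl2, another Fos-type subunit, is not a member and is left out of the sums. It had 124 ± 20.4 CPM in laminin-rich gel and 123 ± 27.0 CPM in collagen I (SD, n = 5 each). That is above Fosl1 and Fos in CPM, without adjustment for transcript length, so the values do not describe all Fos-type messenger RNA. The Fos-type share and the ratio of the summed levels contain the Fosl1 values above, so neither is a separate result.

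Whether the genes vary together between libraries of the same gel was read from log2 CPM centred within each matrix, over all 45 pairs and 10 libraries. Pearson's r was positive in 34 pairs, with a median of 0.341. After Benjamini-Hochberg adjustment over the 45 pairs, 3 passed a permutation test of r, and none passed for Spearman's rho. Fos and Atf3 had r = 0.875 (two-sided permutation p = 0.0026, adjusted 0.0447) and rho = 0.685 (permutation p = 0.0353, adjusted 0.265). Without the 2 libraries farthest from the median of Fos, laminin-rich replicate 4 and collagen I replicate 3, r was 0.326, so the relation rests on those libraries. With Dusp1, r was 0.111 for Fos and 0.140 for Atf3.

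Fosl1 and Jund had r = 0.847 (permutation p = 0.0030, adjusted 0.0447) and rho = 0.855 (permutation p = 0.0026, adjusted 0.107), with r = 0.736 without the 2 libraries farthest from the median of Fosl1. Junb and Jund had r = 0.835 (permutation p = 0.0029, adjusted 0.0447) and rho = 0.818 (permutation p = 0.0058, adjusted 0.107), with r = 0.931 without the 2 farthest from the median of Junb. These p-values come from permutations over all 10 libraries. With permutations kept within each matrix, an exact test over 14400 arrangements added after the data were seen, 0 of the 45 pairs passed, and the 3 pairs above each had an adjusted exact p of 0.193. Egr1 had an r of -0.083 with Fos, -0.213 with Fosl1, -0.446 with Junb and -0.500 with Jund. Centred within code letter, r was 0.910 for Fos with Atf3, 0.787 for Fosl1 with Jund and 0.924 for Junb with Jund, and 35 of the 45 pairs were positive. Within letters 144 arrangements exist, so no exact p can go below 0.00694. A pair at that limit could not pass alone after adjustment over 45 pairs, so this test cannot decide whether the relations hold within letters. In it 0 pairs passed (adjusted exact p = 0.781, 0.781 and 0.625 for these 3 pairs).

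A property of the libraries was correlated with several of these genes. For each library, the deviation of log2 CPM from the mean of the 10 libraries was regressed on log2 transcript length. By this definition a gene with a short transcript tends to fall as the slope rises, so part of a negative r is built in. In GENCODE M21, Ier2, Jund, Junb and Fosl1 have the shortest transcripts of the 10 genes (1522, 1668, 1809 and 1864 bases), and Egr1 the longest (4484). The same 4 have the highest GC content (58.5% to 67.1%). The p-values below therefore do not show a link particular to these genes. The slope was 0.058 ± 0.120 log2 units per doubling of length in laminin-rich gel and -0.058 ± 0.234 in collagen I (SD, n = 5 each). It went with the code letter within collagen I, at -0.063 to 0.183 in the 3 libraries of letter B and -0.371 and -0.190 in the 2 of letter D. Most of the genes also differed by letter there without overlap. Fosl1, Jund, Ier2, Junb, Atf3 and Dusp1 were higher in letter D, and Egr1 was lower. The share of all genes that separate in this way was not counted, and groups of 3 and 2 libraries often separate by chance. Over all genes, collagen I replicates 1 (letter B) and 4 (letter D) differed by 52.0 times sampling noise. The separation is therefore not shown to be particular to these genes. Centred within each matrix, the slope correlated with Jund at r = -0.870 (permutation p = 0.0012, adjusted 0.0121 over 10 genes) and rho = -0.927 (permutation p = 3.6e-04, adjusted 0.0036). Fosl1 had r = -0.821 (permutation p = 0.0040, adjusted 0.0198), Ier2 r = -0.804 (permutation p = 0.0061, adjusted 0.0204) and Junb r = -0.764 (permutation p = 0.0098, adjusted 0.0244), and rho passed with them (-0.842 for Fosl1 and -0.818 for both others, each with an adjusted permutation p of 0.0147). Without the 2 libraries with the most extreme slopes, collagen I replicates 4 and 1, r was -0.907 for Jund, -0.762 for Fosl1, -0.705 for Ier2 and -0.802 for Junb. With permutations kept within each matrix, Jund (adjusted exact p = 0.0021), Fosl1 and Junb (0.0146 each) passed, and Ier2 did not (0.0549). Centred and permuted within code letter, r was -0.891 for Jund, -0.877 for Junb, -0.703 for Fosl1 and -0.576 for Ier2. There 0 of the 10 genes passed (adjusted exact p from 0.104 for Jund and Junb to 0.486 for Ier2 among these 4). A gene at the lowest possible exact p, 0.00694, could not pass alone after adjustment over 10 genes, so this test cannot decide. The other 6 genes did not pass in any of these tests, with Egr1 at r = 0.622 (permutation p = 0.0550, adjusted 0.110), and 0.322 without those 2 libraries.

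With the length and GC trend of each library removed, the log2 difference of Fosl1 between the matrices was -0.77, against -0.78 before, and that of Egr1 was 0.34, against 0.48 before (adjusted p = 0.336 in edgeR). Among the pairs, r was then 0.684 for Fosl1 with Jund and 0.648 for Junb with Jund (adjusted permutation p = 0.149 for both), and 0.960 for Fos with Junb, against 0.732 before (adjusted permutation p = 0.0022). For Fos with Atf3 it was 0.899, and 5 of the 45 pairs passed with permutations over all 10 libraries. With the trend removed 44 of 45 pairs were positive, and those of Egr1 changed sign, to 0.335 with Fos, 0.588 with Fosl1, 0.199 with Junb and 0.133 with Jund. Without laminin-rich replicate 4, chosen after its Fos value was seen, r was 0.676 for Fos with Atf3 (adjusted permutation p = 0.322), 0.159 for Fos with Junb (0.742) and 0.832 for Fosl1 with Jund (0.163), while Junb with Jund gave 0.952 and passed (0.0279). These values keep the trend. With the trend removed, neither leaving out that library nor permuting within each matrix was run.

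**Figure D5:**
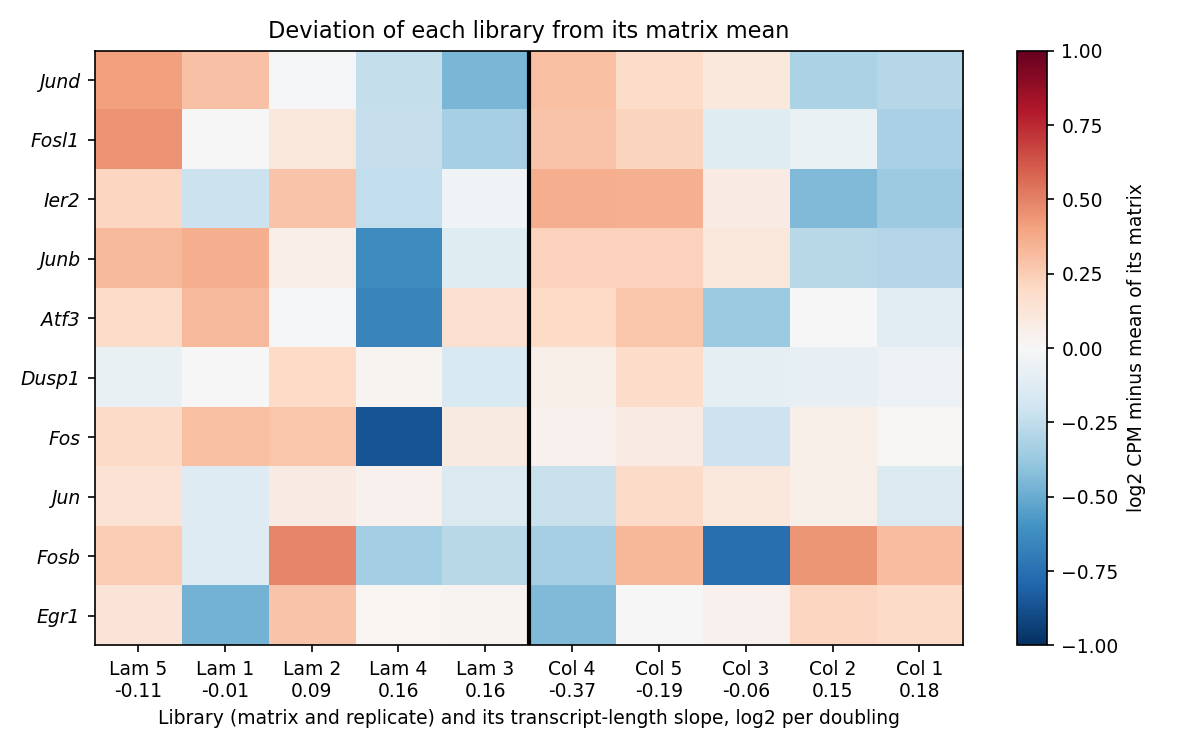
Each cell gives a gene's log2 CPM in 1 library minus the mean of its matrix, with laminin-rich libraries left and collagen I libraries right, each ordered by the transcript-length slope printed under the library. Jund, Fosl1, Ier2 and Junb, the members with the shortest transcripts, tend to be higher where the slope is lower. Laminin-rich replicate 4 is low for Fos, Atf3 and Junb.

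The genes outside the family whose centred log2 CPM was most like that of Fos over the 10 libraries were Sqor (r = 0.975), a mitochondrial sulfide oxidase, Anxa13 (0.961), an epithelial annexin, Dstn (0.958), an actin-severing protein, Mthfd2 (0.943), a mitochondrial folate enzyme, and Arpc5 (0.936), a subunit of the Arp2/3 complex. Without laminin-rich replicate 4 these values were 0.646 to 0.777.

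In the pathway around these genes, 6 lists held 139 tested genes counted once, and 0 passed in edgeR or limma over all genes tested. DESeq2, which called 219 of the 11942 genes it tested, called 2 from these lists, Arc and Hspa1b, both higher in laminin-rich gel. Arc was not among the 139, as it did not pass the count filter used for edgeR, and it was named after its call was seen. The edgeR fit with the length and GC trend removed called 1, Atf7, lower in laminin-rich gel. At an unadjusted p under 0.05 there were 17, or 12.2%, near the 11.6% of all genes, with 5 above and 12 below collagen I. Of 40 other early response genes tested, 21 had a positive and 19 a negative difference, with a median of 0.01. The lowest p-values belonged to Nfkbiz, a nuclear IkB protein (log2 difference 0.50, SE 0.16), Klf4, an epithelial differentiation factor (0.42, SE 0.13), and Rhob, an early response GTPase (-0.45, SE 0.16), with adjusted p of 0.246, 0.254 and 0.307 in edgeR. The most abundant were Mcl1, a survival factor of the Bcl-2 family, at 302 ± 14.1 CPM in laminin-rich gel and 304 ± 16.1 CPM in collagen I (SD, n = 5 each), and Zfp36l2, an RNA-decay factor (log2 difference 0.25, SE 0.14). Of the genes named from these lists, Zfp36l2, Dusp5 and Hmga2 have exons that overlap a gene on the opposite strand.

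Upstream of the family, 30 kinases, GTPases and transcription factors were tested, with a median log2 difference of -0.04. Mapk3 encodes ERK1, a kinase that drives the response of Fos and Egr1 to growth factors. It was at 362 ± 36.0 CPM in laminin-rich gel and 399 ± 78.6 CPM in collagen I (SD, n = 5 each), a log2 difference of -0.12 (SE 0.14). Nras, a GTPase upstream of ERK, gave -0.27 (SE 0.09) and the kinase Map2k6 gave -0.32 (SE 0.13), with adjusted p of 0.307 for Nras and 0.347 for Map2k6 in edgeR. Of 17 phosphatases and feedback inhibitors of the MAP kinases, 9 were positive and 8 negative, with a median of 0.03. Dusp10 gave -0.40 (SE 0.14), Dusp5 -0.44 (SE 0.15) and Dusp14 -0.38 (SE 0.20), with adjusted p from 0.286 to 0.475 in edgeR. Spred1, an inhibitor of Ras signalling, gave -0.14 (SE 0.15) and Nf1, a Ras-inactivating protein, 0.17 (SE 0.20).

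Of 21 other leucine-zipper factors that can pair with AP-1 subunits or resemble them, 0 had an unadjusted p under 0.05 in edgeR, with a median log2 difference of 0.07. Nfil3 gave -0.35 (SE 0.17), Nfe2l1 0.23 (SE 0.13), Atf7 -0.24 (SE 0.15) and Atf4, the factor of the amino acid response, -0.04 (SE 0.11). Of 18 tested genes known as AP-1 targets, 12 were negative and 6 positive, with a median log2 difference of -0.20 against 0.01 over all genes. An unadjusted p under 0.05 in edgeR was found for 4, all 4 below collagen I, against 4.95% of all genes below it at that p. The list was written with earlier results of these data known, so these counts are not a test of AP-1 targets. Mmp13, a collagenase, was at 26.1 ± 10.2 CPM in laminin-rich gel and 47.1 ± 7.21 CPM in collagen I (SD, n = 5 each), and its adjusted p was 0.243 in edgeR. Sprr1a, a precursor of the cornified envelope, was at 61.3 ± 19.1 CPM in laminin-rich gel and 111 ± 50.2 CPM in collagen I (SD, n = 5 each), with an adjusted p of 0.302 in edgeR. Hmga2, a chromatin protein, gave -0.42 (SE 0.15), Vim, a mesenchymal intermediate filament, -0.34 (SE 0.14), and S100a6 0.11 (SE 0.19).

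Heat shock proteins, which also respond to handling and stress of cells, had a median log2 difference of 0.00 over 15 tested genes. Hspa1b was at 56.9 ± 9.10 CPM in laminin-rich gel and 34.2 ± 9.83 CPM in collagen I (SD, n = 5 each), a log2 difference of 0.74 (SE 0.18), with an adjusted p of 0.129 in edgeR. Its near-identical copy Hspa1a makes the split of reads between the pair uncertain. Hspb8 gave -0.39 (SE 0.20), the co-chaperone Bag3 0.17 (SE 0.11), Hsp90ab1 0.06 (SE 0.11) and Hspa8 -0.05 (SE 0.11). Per the labels, spheroids were taken out of the gel on ice before lysis, and the part of that step in the levels of these stress-responsive genes was not tested.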

How the data were processed

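The authors deposited 1 table of raw whole-number counts, genes in rows by symbol and the 10 libraries in columns, which were matched to the labels by library code. Per the labels' protocols, stranded poly(A) libraries were made from 30 ng of RNA. Per the submitters' processing notes, GRCm38, also written mm10, was the genome build and DESeq2 was among the tools. The aligner, counter, strand setting and annotation were not given in the sources used here. Of 18407 genes, 3984 had no count, and 3 counts, the limit a count of 0 allows, came to 0.369 to 0.678 CPM (counting error only).

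CPM values use library totals. The test was edgeR 4.0.16 (R 4.3.3), quasi-likelihood, TMM factors (0.958 to 1.02), default filterByExpr, group as the only term, two-sided, Benjamini-Hochberg over 10789 genes, threshold 0.05. The SE is the log2 difference divided by the square root of F. Alternatives used DESeq2 1.42.0, limma 3.58.1 (voom), other scalings and filters, a replicate block, left-out libraries or code letters, and an edgeR offset with each library's spline trend (5 degrees of freedom each) on transcript length and GC content. That trend also removes any matrix effect that follows those properties. Correlations used 100000 permutations on log2 CPM (prior count 2), with exact permutations within matrix and within code letter as later additions. Positions and lengths came from GENCODE M21 (GRCm38). The closest pair of libraries differed by 3.32 times sampling noise (chi-square per degree of freedom). Steps were tested on simulated data of 10736 genes. There, 35.7% of 1.5-fold, 75% of 2-fold and 97.1% of 3-fold changes were recovered, and 13 of 151 calls were false.

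The members and lists were chosen with earlier results of these data known. Named were all 10 members, the 5 genes most like Fos, and per pathway list the genes called, the 3 with the lowest p and the 2 most abundant. Fosl2 was named outside this rule. Some genes that this rule names are not reported here. The correlation with the length slope and the ratios between members were added after the values were seen.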

Additional observations from a re-analysis of the deposited data

Results flagged for a closer look

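In 24 groups of 5 libraries (10 genes, total count and length slope, each in both matrices), 2 held a library whose gap to the nearest of the others exceeded Dixon's 95% critical share of the group's range, where chance gives about 1 in 20, or 1.2. Both concern Fos. Laminin-rich replicate 4 was at 14.2 CPM, with the nearest library at 27.8 CPM and the highest at 32.3 CPM. Collagen I replicate 3 was at 21.2 CPM, with the nearest at 24.7 CPM and the highest at 26.0 CPM.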

How the results depend on the processing

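Of 230 log2 differences for the 10 genes (23 alternatives each), 215 kept direction and side of the threshold and 5 newly passed, those of Fosl1 and Egr1 given above. The other 10 changed sign without passing. With single libraries left out, Ier2 ran from -0.065 to 0.15 and Jund from -0.19 to 0.0075. Without letter B, Ier2 was -0.29 and Junb -0.069, without letter D Jund was 0.089, and without letter E Fos was -0.18. The count of these genes called, 0 in edgeR, was 1 with DESeq2, 2 without letter B, 1 with the length and GC trend removed and 1 with that removal plus the replicate block. Over all genes tested, those fits called 219 of 11942, 2083 of 11018, 104 of 10789 and 12 of 10789. None of the 10 genes was called in any fit that left out 1 library.

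The count over all genes, 16, was 219 with DESeq2, 29 with no filter, 104 with the trend removed, and 0 to 64 with single libraries left out. It was 0 without laminin-rich replicate 2 or collagen I replicates 3 or 5 (977, 1167 and 940 genes at an unadjusted p under 0.05). Without code letters it was 2083 (B), 5 (D), 1 (E) and 5 (F). With replicate number as a block it was 0 (1049 at an unadjusted p under 0.05), and Fosl1 was at -0.79 (adjusted p = 0.226 in edgeR). Same-numbered libraries correlated above 0.1 in 2 of 5 pairs, and 0 of 5 laminin-rich libraries correlated best with their own number, so the numbers were not taken as pairs. The cause of these shifts was not tested. Depth limits Fosb most, at 7 to 18 counts per library.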
